A study of Mus musculus with 2 samples.

Results

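DNase I cuts DNA where it is free of nucleosomes, so a peak of cuts marks an accessible regulatory site. The sites described here lay just past gene 3′ ends: their midpoints fell 0 to 2 kb downstream of the annotated end of a protein-coding gene, over 2 kb from any annotated transcript start and outside other gene bodies. On the autosomes 1772 of 124227 peaks met the rule in replicate 1 and 808 of 65403 in replicate 2, which is 1.43% (95% Wilson interval 1.36 to 1.49) and 1.24% (1.15 to 1.32) of the lists. Intervals here cover counting error only.

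Whole thymus was taken from 2 females of strain B6CASTF1/J at an age of 25 days, and each gave 1 library. The labels number the animals separately but give both samples the same donor identifier, so the spread between the libraries is taken here, not known, to be that between animals. They form 1 untreated group, with no other group to compare. B6CASTF1/J is a first-generation hybrid, so each cell carries a C57BL/6J and a CAST/EiJ genome, while positions are on the C57BL/6J reference (mm10). The tissue label matched the peaks: all 12 thymocyte marker genes had a promoter peak in both libraries and none of 4 liver markers did. Markers of other cells of the organ were in part open, with 2 of 6 for thymic epithelium in both libraries, 3 and 2 of 4 for endothelium and stroma, 2 of 4 for myeloid cells in both and 1 and 0 of 4 for B cells (replicate 1, then replicate 2). In whole tissue, fewer cells with an open site and a less open site in every cell cannot be told apart.

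At a gene's 3′ end the transcript is cleaved and polyadenylated, and RNA polymerase runs on before it terminates. The stretch behind the end can also hold regulatory DNA: enhancers downstream of Cd2 and of Cd3e, 2 T-cell surface receptor genes, are classic examples in T cells. CTCF, a zinc-finger protein that with cohesin anchors chromatin loops in the direction of its motif, is another frequent occupant of sites between genes.

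The 2 sites below lay at those known T-cell enhancer genes, and each was found in both libraries. Capitals mark bases that lay in a deposited footprint in both libraries. A footprint is a short stretch inside an accessible site that DNase I cut less than its surroundings, as happens under a bound protein. Each sequence is the stretch shared by the peaks of both libraries, printed 5′ to 3′ on the gene's strand of GRCm38 (mm10). They hold short matches to T-lineage factor motifs: the Cd2 site has a RUNX match (TGTGGT or its complement) and an E-box (CACCTG), and the Cd3e site has another E-box (CAGCTG) and a GATA match. Both matches of the Cd2 site and the GATA match lie outside the capitals, and the CAGCTG E-box lies in them only in part.

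Cd2, chr3:101274921-101275120, minus strand: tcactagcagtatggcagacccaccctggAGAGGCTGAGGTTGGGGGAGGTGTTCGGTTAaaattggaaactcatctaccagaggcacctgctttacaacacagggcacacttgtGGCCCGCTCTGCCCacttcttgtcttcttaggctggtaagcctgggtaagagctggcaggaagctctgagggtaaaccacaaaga

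Cd3e, chr9:44996701-44996900, minus strand: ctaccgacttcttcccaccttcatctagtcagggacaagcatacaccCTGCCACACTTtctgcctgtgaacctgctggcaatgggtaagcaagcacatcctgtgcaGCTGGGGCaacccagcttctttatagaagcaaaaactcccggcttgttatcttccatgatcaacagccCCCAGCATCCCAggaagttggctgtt

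Shown next, because they were among the densest 3′ end sites of both libraries, are those behind Midn, which encodes the nuclear protein midnolin, and behind Lag3, which encodes an inhibitory receptor of activated T cells. Capitals again mark footprint bases common to both libraries. For Midn the first 300 bases are shown. The Lag3 stretch of capitals in the middle covers a match to the CTCF motif.

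Midn, chr10:80159781-80160080, plus strand: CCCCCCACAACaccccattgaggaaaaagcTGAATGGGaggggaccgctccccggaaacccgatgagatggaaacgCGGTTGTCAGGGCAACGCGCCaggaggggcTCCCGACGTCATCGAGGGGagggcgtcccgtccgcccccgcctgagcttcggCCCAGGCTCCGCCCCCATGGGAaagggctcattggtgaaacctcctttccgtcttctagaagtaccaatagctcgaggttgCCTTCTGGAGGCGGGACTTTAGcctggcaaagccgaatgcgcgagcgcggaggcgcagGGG

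Lag3, chr6:124903641-124903860, minus strand: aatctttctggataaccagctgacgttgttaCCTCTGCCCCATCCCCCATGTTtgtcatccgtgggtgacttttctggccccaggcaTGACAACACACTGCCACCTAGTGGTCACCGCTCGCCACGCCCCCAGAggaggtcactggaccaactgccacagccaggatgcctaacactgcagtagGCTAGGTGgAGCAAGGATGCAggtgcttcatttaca

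The 4 densest 3′ end sites with a CTCF match that a footprint touched in both libraries are shown as 40-base windows, on the strand of the match. Capitals mark the 12 bases of the match. In Eef1b2 the match ran on the gene's strand, and in Lag3, Acvrl1 and Celsr2 on the opposite one.

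Lag3, chr6:124903736-124903775, plus strand: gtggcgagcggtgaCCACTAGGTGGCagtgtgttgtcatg

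Acvrl1, chr15:101145550-101145589, minus strand: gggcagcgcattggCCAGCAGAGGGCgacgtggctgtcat

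Celsr2, chr3:108389330-108389369, plus strand: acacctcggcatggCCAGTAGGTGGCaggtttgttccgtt

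Eef1b2, chr1:63181149-63181188, plus strand: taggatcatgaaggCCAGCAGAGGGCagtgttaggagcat

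The sites were spread evenly over the 2 kb. In replicate 1, 428 lay 1 to 500 bp past the end, 465 in the next 500 bp, then 451 and 427. In replicate 2 the counts were 195, 211, 198 and 204. One site of replicate 1 had its midpoint on the last base of the gene. Their median distance from the end was 997.5 bp, and 996.5 bp in replicate 2. At the outer edge of the rule, 164 and 68 sites lay in the last 200 bp inside it (median density 0.841 and 0.798), and 181 and 87 peaks that met the other conditions lay in the first 200 bp outside it (1.14 and 0.786). Density is the authors' signal value of a peak, whose scaling is not stated, so it was read only within a library. Sites belonged to 1494 genes in replicate 1 and 689 in replicate 2, and 88 and 33 sites lay between the ends of 2 genes. Most genes had 1 site (1215 and 577), 19 and 7 had 4, and 1 and 2 had 5.

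Accessibility was lower right at the 3′ end than in the sequence next to it. Over 12290 genes of at least 4 kb, the share of bases that the authors listed at a false discovery rate (FDR) below 0.05 was 2.30% in replicate 1 at 400 to 300 bp inside the gene. It was 1.38% in the last 100 bp of the gene and 1.44% in the first 100 bp past it, and 2.32% at 300 to 400 bp. In replicate 2 the same steps gave 1.14%, 0.571%, 0.566% and 0.918%. Peak midpoints followed: 29.2 per Mb in the last 100 bp of genes against 79.7 per Mb at 400 to 300 bp inside and 80.3 per Mb at 300 to 400 bp past the end in replicate 1, and 7.96 per Mb against 45.3 and 31.6 in replicate 2. In replicate 1 the last 100 bp were also below the step at 300 to 400 bp for genes with a promoter open in both libraries (1.57% against 2.92%) and in neither (1.02% against 1.31%), and in replicate 2 the values were 0.744% against 1.23% and 0.367% against 0.457%. The end was not the lowest place in every group: farther inside, at 1900 to 1800 bp before the end, replicate 2 had 0.722% for open genes and 0.287% for those open in neither. The G + C content of the reference moved with it only in part. It was 35.6% in the last 100 bp, against 43.9% at 400 to 300 bp inside and 44.8% at 300 to 400 bp past the end. In the first 100 bp past the end, where the listed share was about as low, it was 42.0%. At 1900 to 1800 bp inside it was 44.7%, where replicate 2 listed 0.571% over all the genes. The part of base composition in the trough was not tested.

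**Figure D1:**
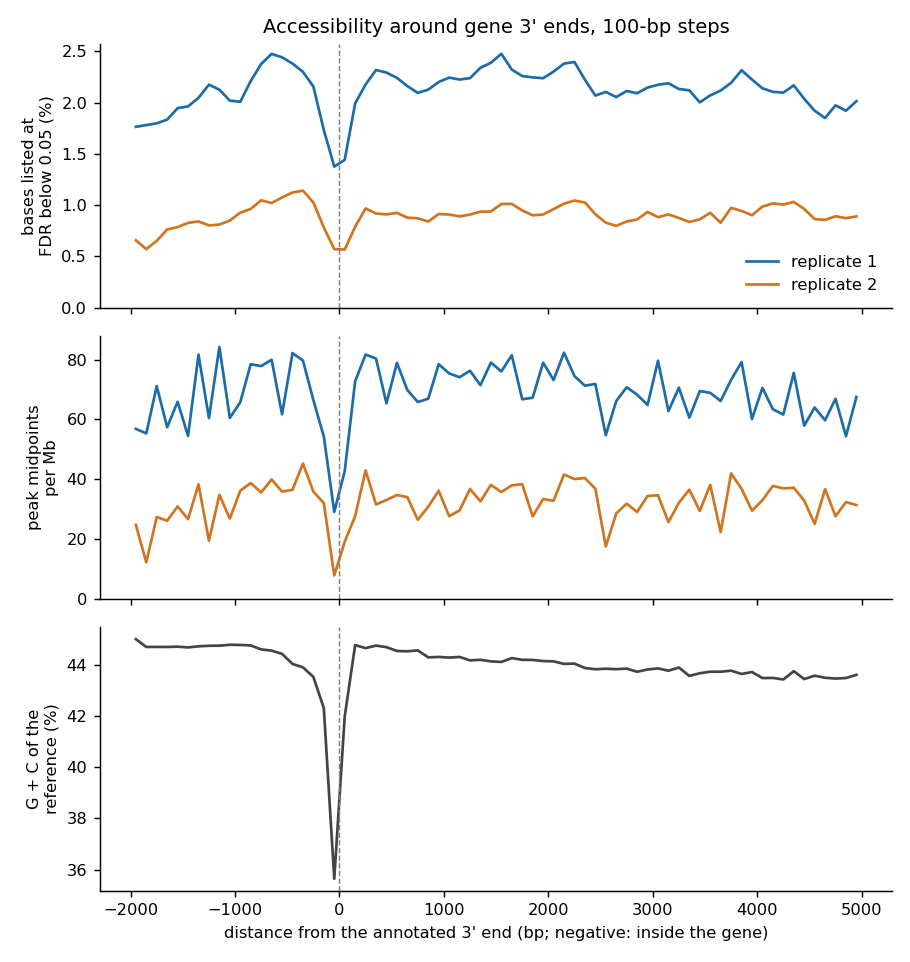
Share of bases listed at an FDR below 0.05 (top), peak midpoints per Mb (middle) and G + C content of the reference (bottom) in 100-bp steps from 2000 bp inside the gene to 5000 bp past its annotated 3′ end (dashed line), over 12290 protein-coding genes. Lines are the 2 libraries. Both upper panels are lower within 100 bp of the end than next to it, with a share of 1.38% in the last 100 bp in replicate 1. G + C content is lowest in the last 100 bp of the gene and is 42.0% in the first 100 bp past it.

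Past that trough the sites were frequent, and peaks farther downstream were nearly as frequent. The 24.5 Mb of sequence that the rule allows held 72.2 sites per Mb (exact Poisson 95% interval 68.9 to 75.6) in replicate 1 and 32.9 per Mb (30.7 to 35.3) in replicate 2. The rest of the intergenic sequence over 2 kb from a start held 25.7 and 12.4 per Mb, so the 3′ end sites were 2.81 and 2.65 times as frequent. At 2 to 4 kb past the end the rate was 67.6 per Mb (64.3 to 71.04) and 32.4 per Mb (30.1 to 34.8), with intervals that overlapped those of the first 2 kb. At 18 to 20 kb it was 54.5 (50.97 to 58.2) and 25.4 (23.1 to 28.0), below the first 2 kb in both libraries.

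The rate differed more by whether the gene's own promoter was open. A promoter was called open when a peak midpoint lay within 1 kb of the gene start. Behind genes open in both libraries there were 95.8 sites per Mb (90.6 to 101.4) in replicate 1 and 44.8 (41.2 to 48.6) in replicate 2. Behind genes open in neither there were 42.4 (38.4 to 46.6) and 19.5 (16.8 to 22.4), with no overlap of the intervals in either library. The gap was still there at 18 to 20 kb, with 76.0 against 32.7 per Mb in replicate 1 and 36.5 against 13.7 in replicate 2.

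**Figure D2:**
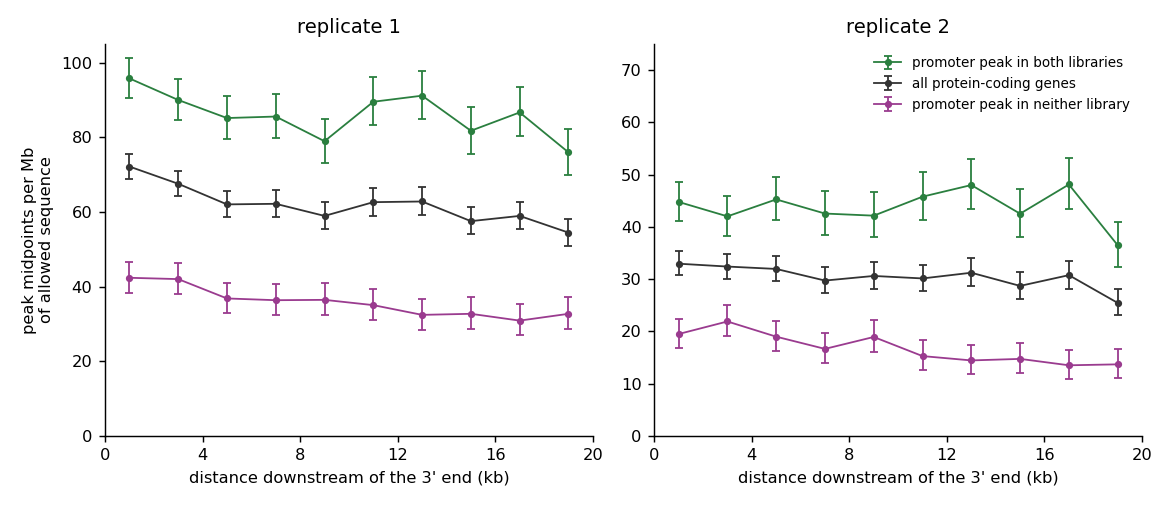
Peak midpoints per Mb of allowed sequence in 2-kb steps downstream of gene 3′ ends, for replicate 1 (left) and replicate 2 (right, its own scale), by state of the gene's promoter. Points are rates and bars exact Poisson 95% intervals. Lines for open and closed promoters stay apart out to 20 kb, and the first step (72.2 and 32.9 per Mb over all genes) lies close to the second.

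Of 14021 protein-coding genes with at least 500 bp of allowed sequence, 1471 had a site in replicate 1 and 677 in replicate 2, a background of 10.5% and 4.83% against which the gene groups below are read. A promoter peak was present at 59.2% and 52.1% of these genes. Of the 3′ end sites, 76.7% (74.7 to 78.6, n = 1755) and 70.8% (67.6 to 73.9, n = 798) belonged to a gene with one. Genes open in both libraries had a site in 13.6% (12.8 to 14.4) and 6.47% (5.92 to 7.06) of cases, and genes open in neither in 6.34% (5.73 to 7.01) and 2.82% (2.42 to 3.29). The densities of site and promoter were nearly unrelated: over sites with a promoter peak, Spearman's rho between the densities was 0.035 in replicate 1 (n = 1359 sites) and 0.085 in replicate 2 (n = 571). These are descriptions, since sites share genes and a library. The site was denser than its own promoter peak in 15.9% and 14.01% of those cases.

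Among open genes, short ones had the most sites behind them. In genes open in both libraries, those up to 10 kb long had 124 and 56.7 sites per Mb, those of 10 to 30 kb 99.8 and 47.1, those of 30 to 100 kb 88.4 and 38.6, and those over 100 kb 67.2 and 33.4. Both libraries gave the same order of the 4 lengths. Over all genes, open or not, the order was another: those up to 10 kb had 63.6 and 28.8 per Mb, below those of 10 to 30 kb (81.9 and 37.9) and 30 to 100 kb (80.05 and 35.2). Orientation of the neighbour did less. Open genes whose neighbour within 10 kb faced them end to end had 99.0 and 37.7 sites per Mb, and those that ran towards a neighbour's start had 108 and 53.5. A site behind a short gene is also close to that gene's start. The median distance from a site to the nearest annotated start of any transcript was 6345.5 bp (6126.5 bp in replicate 2), and 31.3% and 30.2% of sites were over 10 kb from any.

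In strength the sites stood between promoters and the rest of intergenic sequence. Their median density was 0.949 in replicate 1 and 0.846 in replicate 2. That is the 54.3rd and 46.4th percentile of the library's own list, against 42.8 and 38.1 for other intergenic peaks, 49.6 and 42.6 for peaks in the last 2 kb inside genes, and 75.7 and 76.0 for promoter peaks. Peaks 2 to 4 kb past a 3′ end, under the same exclusions, had median percentiles of 55.9 and 45.8. The rank was therefore not particular to the first 2 kb. The densest decile of the list held 7.62% and 3.96% of the sites, against 10.07% and 10.1% of all autosomal peaks. Its least dense decile held 5.08% (4.15 to 6.202) and 10.9% (8.93 to 13.2), against 9.62% and 9.50% of all, so sites were fewer there in replicate 1 alone. They carried 2.50 and 2.27 footprints each, against 2.19 and 2.13 in other intergenic peaks, 3.04 and 3.33 in promoter peaks and 2.38 and 2.55 in all autosomal peaks. At like density, with each list cut into 5 classes of 20%, class 5 the densest, sites were mostly not above other intergenic peaks. Class 3 had 2.39 against 2.40, and 2.34 against 2.49 in replicate 2. Sites were above only in class 1 of replicate 1 (0.825 against 0.641) and class 4 of replicate 2 (3.15 against 3.10). A CpG-island-like window was found at 3.39% and 4.95% of sites, against 59.1% and 69.6% of promoter peaks. Within 1 kb of a RefSeq transcript start, which the rule did not use, lay 3.33% and 4.46% of sites. The midpoint lay inside a RefSeq gene at 11.5% and 10.3% of sites, against 15.3% and 16.3% of other intergenic peaks.

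The libraries shared part of the sites. A partner, a peak of the other library that overlaps by at least 1 bp, was found for 40.2% (38.0 to 42.5) of sites of replicate 1 and 88.5% (86.1 to 90.5) of sites of replicate 2, against 47.1% and 89.2% of all autosomal peaks. Replicate 1's list is the longer one. The share was higher among denser sites. With each list cut into 5 density classes of 20% each, class 5 the densest, it was 4.56% in class 1 of replicate 1, 11.8% in class 2, 31.4% in class 3, 52.9% in class 4 and 91.1% in class 5. Other intergenic peaks of the same classes had partners more often in the middle of the range: 18.6%, 44.5% and 66.5% in classes 2, 3 and 4, with Wilson intervals apart from those of the sites (8.92 to 15.4, 26.8 to 36.4 and 48.0 to 57.7). In classes 1 and 5 the intervals overlapped, with 5.63% and 93.9% of other intergenic peaks partnered. Over all densities the other intergenic peaks had partners in 39.96% (39.4 to 40.5) and 82.5% (81.9 to 83.1), an interval that overlapped that of the sites in replicate 1 and lay below it in replicate 2. In replicate 2 the classes did not separate the same way, with 97.0% of sites and 95.02% of other intergenic peaks in class 2. Of the 1059 sites of replicate 1 with no partner, 3.12% (2.23 to 4.34) touched any base that replicate 2 listed at an FDR below 0.05, against 4.44% of unpartnered other intergenic peaks and 6.40% of all unpartnered autosomal peaks.

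**Figure D3:**
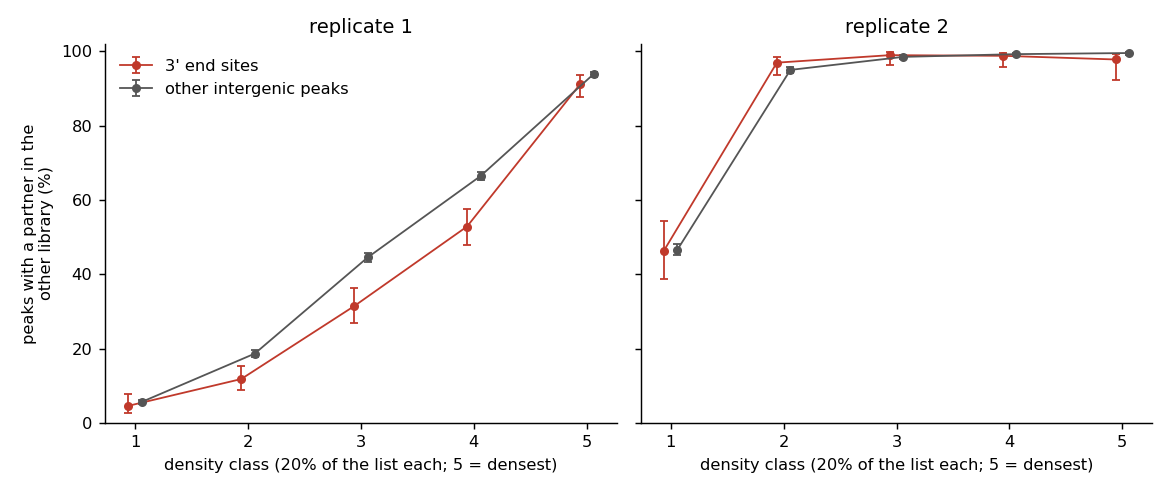
Share of peaks with a partner in the other library by density class of the list (each 20% of it, 5 the densest), for 3′ end sites and other intergenic peaks. Points are shares and bars 95% Wilson intervals. In replicate 1 (left) the sites lie below other intergenic peaks in classes 2 to 4, at 52.9% against 66.5% in class 4; in replicate 2 (right) the curves lie together.

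Sites without a partner in replicate 1 differed from those with one in sequence. The AATAAA hexamer, the polyadenylation signal, stood in the 200-base window of 15.4% (13.3 to 17.7) of unpartnered sites and 7.85% (6.10 to 10.1) of partnered ones. Mostly repeat windows made up 17.4% and 6.17%, and the CAGCTG E-box was in 15.3% (13.3 to 17.6) and 21.5% (18.6 to 24.6). Other intergenic peaks showed the same directions, with AATAAA in 14.3% against 8.48% and CAGCTG in 14.4% against 22.5%. The median density of the sites was 0.550 without and 2.79 with a partner, so density moves with these shares, and its part was not tested. In replicate 2 the AATAAA difference was not repeated. The hexamer was in 6.45% (2.99 to 13.4, n = 93) of unpartnered sites and 7.83% (6.08 to 10.03) of partnered ones. Other intergenic peaks of replicate 2 had 7.56% against 8.17%. Mostly repeat windows (13.98% against 6.15% of the sites) and CAGCTG (17.2% against 23.9%, with overlapping intervals) kept their directions there.

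Of 22 motifs searched on both strands of the 200 bases around each midpoint, CTCF was the motif whose share in 3′ end sites was above that in other intergenic peaks with intervals apart in both libraries. It matched 204 sites of replicate 1, 11.5% (10.1 to 13.1), and 88 of replicate 2, 10.9% (8.93 to 13.2). Other intergenic peaks matched in 7.85% and 6.60%, and all autosomal peaks in 5.47% and 4.3%. With the window widened to 5 kb the share was 11.6% and 10.4%, so it was not particular to the first 2 kb. By density class, sites were below other intergenic peaks in class 1 (2.66% against 3.65%, and 3.31% against 4.19% in replicate 2). They were level in class 3 of replicate 1 (6.06% against 5.99%) and above in the remaining classes. Peaks in the last 2 kb inside genes were nearer to the sites, at 8.59% (7.36 to 9.99) and 9.11% (7.34 to 11.3), and in replicate 2 their interval overlapped that of the sites. A footprint touched the match in 193 of the 204 sites and 87 of the 88. This share was not computed for CTCF matches in other peaks, so it is not read as a trait of the sites. A footprint anywhere in the peak was found at 87.1% of 3′ end sites in both libraries. Of all autosomal peaks, 81.2% and 86.0% had one. The match ran on the gene's own strand in 123 of 203 sites of replicate 1, 60.6% (53.7 to 67.1), and in 51 of 87 of replicate 2, 58.6% (48.1 to 68.4), with matches on both strands left out. The interval of replicate 2 includes an even split.

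CTCF sites ranked differently in the 2 libraries. All 85 partnered sites of replicate 1 with a match in both libraries had a higher percentile of density in replicate 1 than in replicate 2, with medians of 86.9 and 45.1. Among the 626 with a match in neither, 549 ranked higher in replicate 1, with medians of 75.8 and 52.1. A shared peak tends to rank higher in the longer list, and the gap was wider for CTCF sites, at a median of 41.7 percentile points against 15.8. Other intergenic CTCF peaks behaved alike: 980 of 980 ranked higher in replicate 1, with a median gap of 45.1 points. In density class 4 of replicate 1, 13 of 68 CTCF sites had a partner, 19.1% (11.5 to 30.0), and 200 of 335 other sites, 59.7% (54.4 to 64.8). Without CTCF matches the sites of that class were still below other intergenic peaks, at 59.7% against 70.4% (69.1 to 71.6), and in class 3 at 33.1% (28.4 to 38.3) against 47.0% (45.8 to 48.3).

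Motifs of T-lineage factors were not set apart from other intergenic peaks by their intervals, except TCF/LEF in replicate 1, which was lower. RUNX matches (TGTGGT) were in 24.0% and 23.6% of sites, 21.7% and 23.9% of other intergenic peaks and 19.3% and 19.2% of all autosomal peaks. The E-box CAGCTG, read by E proteins such as HEB and E2A, was in 17.8% and 23.1%, with 17.6% and 21.6% in other intergenic peaks and 17.0% and 19.7% in all. CACCTG was in 26.2% and 29.5%, and in 24.0% and 26.5% of all. TCF/LEF matches (CTTTGAA or CTTTGAT) were fewer, in 6.72% (5.64 to 7.98) of sites against 8.87% (8.56 to 9.20) of other intergenic peaks in replicate 1. In replicate 2 they were in 7.18% (5.59 to 9.17) against 9.57% (9.11 to 10.05), with overlapping intervals, and in 7.19% and 7.27% of all peaks. GATA matches were in 3.56% and 4.83% of sites and 3.29% and 3.11% of all peaks. A match is a stretch of letters, not a bound protein.

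Shares in the lists of T-cell receptor genes and T-lineage factors were above the background of 10.5% and 4.83%. Those in the other T-lineage lists, selection and recombination, were not set apart from it by their intervals. Of 18 genes of the T-cell receptor and its signalling with allowed sequence, 8 had a site in replicate 1 and 4 in replicate 2 (44.4% and 22.2%): Cd2, Cd3e, Cd6 and Cd8a in both, and Cd5, Cd28, Thy1 and Rhoh in replicate 1. Of 24 T-lineage transcription and RNA-binding factors, 10 and 4 did (41.7% and 16.7%): Bcl11b, Ikzf3, Runx3 and Zfp36l2 in both, and Ets1, Ets2, Fli1, Hes1, Satb1 and Sox13 in replicate 1. Their promoters were also more often open, at 17 and 15 of the 18 and 24 and 21 of the 24. Among all genes with a promoter peak the background is 13.4% in replicate 1 and 6.44% in replicate 2. Of 19 genes of thymocyte selection and survival, 3 and 2 had a site (15.8% and 10.5%: Ccr7 and Socs1 in both, Klf2 in replicate 1). Of 10 recombination genes none had one in either library (Wilson interval up to 27.8%), and all 10 had an open promoter in both. Of 22 ribosomal protein genes 4 and 1 had a site (18.2% and 4.55%), of 13 housekeeping genes 1 and 1 (7.69% in both) and of 11 genes of 3′ end processing and termination 2 and 0 (18.2% and none). Lists of other tissues gave 1 and 0 of 11 myeloid genes, 1 and 1 of 15 liver genes (6.67% in both) and 1 and 2 of 10 neuron genes. The neuron share in replicate 2 was 20% (5.67 to 50.98), beside 16.7% of the T factors, with overlapping intervals. B-cell genes had 3 and 2 of 12 (25% and 16.7%, Blk and Ebf1 in both). Genes of stroma, endothelium and epithelium had 5 and 2 of 18 (27.8% and 11.1%), among them Aire and Prss16 in both, 2 genes of thymic epithelium. Both of these lists were above the background in each library, with an interval apart from it only for the stroma list in replicate 1 (12.5 to 50.9). Lists of this size leave wide intervals.

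**Figure D4:**
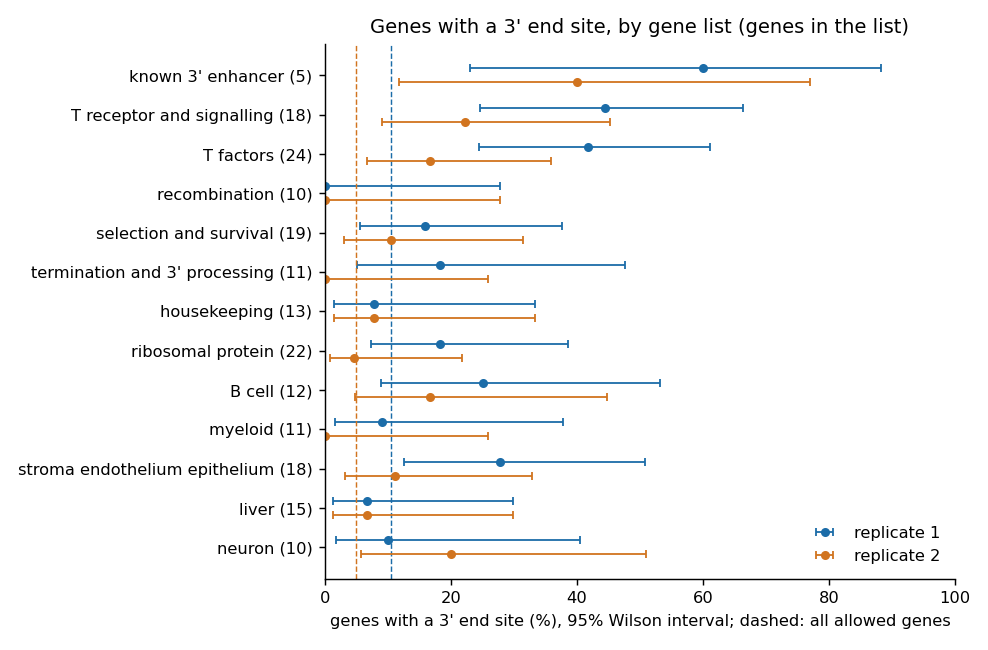
Share of the genes of each list that had a 3′ end site, with the number of genes with allowed sequence in brackets. Points are shares in replicate 1 and replicate 2, bars 95% Wilson intervals and dashed lines the shares over all 14021 genes (10.5% and 4.83%). The T-cell receptor and T factor lists lie right of the dashed lines in both libraries. The points of the known enhancer, selection, B-cell and stroma lists do too, and many intervals cross the lines.

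The T-lineage sites found in both libraries differed widely in strength. The strongest was that of Cd2, an adhesion receptor of T cells, at 869 bp past the end in replicate 1 and 879 bp in replicate 2, with densities of 9.61 and 14.4. It was denser than the gene's own promoter peak, at 3.62 and 2.77. Cd6, a co-receptor of the scavenger receptor family, had 2 shared sites. The one 1781 bp past the end had densities of 9.57 and 11.8 and held matches for RUNX, TCF/LEF and the CAGCTG E-box, and the one at 881 bp had 6.61 and 7.86. Cd3e, which encodes a CD3 signalling chain, had its site at 1930 and 1950 bp, with densities of 3.48 and 4.15 against 7.90 and 8.31 at its promoter. In these 3 genes the density was above the median of all 3′ end sites in both libraries, but they were named for having a shared site. Sites with a partner are denser, with medians of 2.79 in replicate 1 and 0.978 in replicate 2. Of the genes named next with a shared site, all but Cd8a also had one above both medians of all sites.

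Among the regulators, Zfp36l2, which encodes an mRNA-decay factor of thymocytes, had 4 and 3 sites, the strongest at 5.52 and 3.71. That one touched a RefSeq exon, and all of the gene's sites lay within 1 kb of a RefSeq transcript start. Ikzf3, the Ikaros-family factor Aiolos, had 4 and 2 sites, the strongest at 4.05 and 2.80 with 8 and 5 footprints. Socs1, an inhibitor of cytokine signalling, had its strongest at 4.26 and 2.59 only 190 and 180 bp past the end, against 32.4 and 19.9 at its promoter. Ccr7, the chemokine receptor of mature thymocytes, had one at 3.32 and 2.75. Bcl11b, the T-lineage commitment factor, had one at 1.97 and 1.10. Cd8a was weakest, with 4 sites in replicate 1 of 0.376 to 0.957 and 1 in replicate 2 of 0.456. Runx3, the factor of CD8 lineage cells, had a site in each library, at 4.11 and 1.57, but the peaks did not overlap. In the T-lineage genes with a site in replicate 1 alone, the strongest of each lay between 0.302 (Ets2) and 1.13 (Satb1 and Sox13). Only Satb1 and Sox13 were above the median of all 3′ end sites of that library, 0.949. All 3 Hes1 sites touched a RefSeq exon, as did the weaker of the Sox13 sites.

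Of the other genes chosen for a 3′ enhancer known from the literature, Cd3d, whose end faces that of Cd3e across 11401 bp, had no site in either library, and neither had Il4, the type 2 cytokine gene, which had no promoter peak either. The rule allowed only 1387 bp of the 2 kb behind Cd3d and 1014 bp behind Il4. Epo, the erythropoietin gene, had 1 site in replicate 1 of density 2.40, 1660 bp past the end and without a partner. Whether that site is the known enhancer was not tested. Its annotated gene spans 50223 bp, and the promoter peaks at its start (29.2 and 11.3) lie at the far end of that span.

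None of the 10 densest shared sites, by mean percentile, lay behind a gene of the T-lineage lists. Those lists leave out Lag3, the receptor gene of activated T cells, which was among the 10. The Midn site had densities of 42.5 and 31.4, 1612 bp past the end, with 10 footprints in both libraries, and was denser than the Midn promoter peak (17.7 and 6.202). The Lag3 site followed at 41.9 and 16.8, against 3.56 and 3.24 at its promoter. Fam120a had 30.2 and 16.7, Dnajb12 14.3 and 22.1, Gltp 43.1 and 10.8, Zfp36 19.2 and 15.2, Cacnb1 13.4 and 19.6, and 2810021J22Rik 13.8 and 15.9. Zfp36 encodes an mRNA-decay factor of the same family as Zfp36l2, and Gltp a glycolipid transfer protein. Acvrl1, a receptor of the TGF-beta family in endothelium, had 20.04 and 9.50, and Slc11a1, a metal transporter of macrophages, 20.9 and 9.19. Neither Acvrl1 nor Slc11a1 had a promoter peak in either library. The windows were rich in G + C, from 56% in Cacnb1 to 69.5% in Dnajb12, and those of Midn, Fam120a, Gltp and Zfp36 were CpG-island-like. None lay within 1 kb of a RefSeq start, and the 2810021J22Rik site touched a RefSeq exon.

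The 2 libraries ranked shared sites alike in part. Over 707 pairs of sites behind the same gene, in 637 genes, Spearman's rho of the densities was 0.582 and Pearson's r of their log10 values 0.616. These describe 2 libraries and are not a test. The midpoints of a pair differed by a median of 10 bp. The CTCF sites of Celsr2 and Eef1b2 had percentiles of 98.5 and 97.4 within the list of replicate 1 and 87.4 and 86.2 within that of replicate 2, from densities of 24.9 and 19.6, and of 5.58 and 5.09. The Celsr2 site also lies behind Psrc1 and the Eef1b2 site behind Gpr1, genes that end against them.

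**Figure D5:**
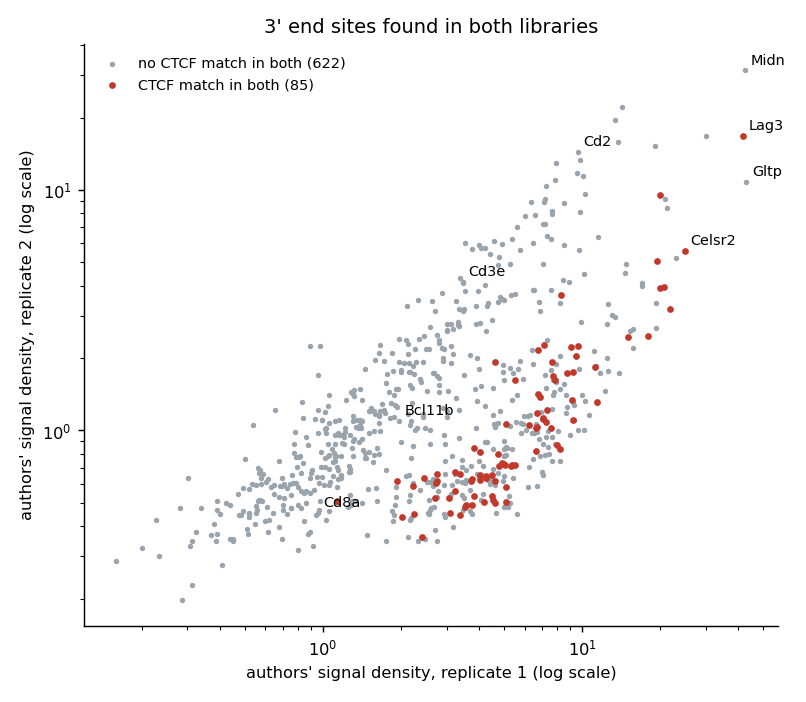
The authors' signal density of the 707 shared 3′ end sites in replicate 1 (x axis) and replicate 2 (y axis), both on log scales. Each point is a site and red points hold a CTCF match in both libraries. Red points lie mainly in the lower right band, as with Celsr2 at 24.9 and 5.58, and Cd2 lies in the upper band at 9.61 and 14.4.

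Several sites could stand behind 1 gene. The 5 genes with the most sites in the library with fewer of them were Trim8, with 4 in both libraries, and Cacnb1, Mrpl58, Plekho2 and Zfp36l2, with 4 in replicate 1 and 3 in replicate 2. In Trim8, an E3 ubiquitin ligase gene, densities ran from 1.11 to 10.2 in replicate 1 and from 0.750 to 9.67 in replicate 2, highest in both at the outermost site, 1752 and 1742 bp past the end. Of the 4 sites of replicate 1, 2 are peaks with the same start, one inside the other, so they stand for 3 separate places. Plekho2 had its densest site at 1498 bp in both libraries, at 8.51 and 8.85. In Cacnb1, a calcium channel subunit gene, the sites at 98 and 108 bp had 9.78 and 13.3 and those at 918 bp 13.4 and 19.6, both above the gene's promoter peak (3.61 and 1.38). The sites of Mrpl58, a mitochondrial ribosomal protein gene, had up to 10.2 and 4.46, and all of its sites in both libraries lay within 1 kb of a RefSeq transcript start, 3 of 4 and 2 of 3 of them on a RefSeq exon. Members of a list can overlap, as 12 in replicate 1 and 1 in replicate 2 did with the site before them, so neighbouring sites are not independent.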

How the data were processed

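DNase-seq files of 2 libraries were analysed. Replicate numbers are the labels' biological replicate numbers. The authors deposited 2 peak lists per library with a signal density per peak, a list of bases with their FDR (a q-value, below 0.05) and footprint positions (unit other: 1 constant number per line, so the authors' positions alone were used). Positions are mm10, per the labels; aligner and callers: not given in the sources used here. Read depth is unknown. The longer list was used (127552 and 67270 peaks).

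Sites were assigned with GENCODE M21, whose 19 autosomes have the lengths of RefSeq GRCm38.p6, the source of sequence and of RefSeq features. Comparison peaks were other intergenic (outside genes, over 2 kb from any start and from any protein-coding 3′ end), last 2 kb inside genes, promoter (within 1 kb of a protein-coding gene start) and all autosomal. Motif windows were 200 bases; CpG-island-like means G + C of at least 55% and observed over expected CpG of at least 0.6, and mostly repeat at least 50% soft-masked. Gene lists (13, with 274 of 280 symbols on autosomes), members and tests were chosen with earlier results of these data known.

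Named genes were the 10 with the shared site of highest mean percentile, T-lineage list genes with a shared site, the 5 with most sites in the library with fewer, all genes of the known-enhancer list and the 4 densest shared CTCF sites touched by footprints in both. T-lineage genes with a site in 1 library, or with unshared sites, were named after their values were seen. With 1 group of 2 there is no test between groups; intervals are Wilson or exact Poisson at 95%. Assignment and overlap were tested on simulated data, with 0 errors over 2657 simulated peaks and 208 genes. Python 3.11.15, pandas 2.3.3, numpy 2.4.6, scipy 1.17.1, pysam 0.24.0 and matplotlib 3.10.9 were used.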

Additional observations from a re-analysis of the deposited data

Results flagged for a closer look

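The rule was limited to autosomes. On the X chromosome, which no comparison above used, 28 of 3284 peaks of replicate 1 and 13 of 1817 of replicate 2 met the same conditions, 0.853% and 0.715% of its peaks. They are listed because they lie outside the main measurement and above the share that 3 peaks would give (0.0914% and 0.165%). The rate was 20.6 and 9.58 sites per Mb of the 1.36 Mb allowed there.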

How the results depend on the processing

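Values are means of the 2 libraries, and an alternative is set beside the spread between them (1 SD, n = 2), so where the libraries lie far apart, as for the partner share, little can move beyond it. Of 67 alternative values 50 stayed within 1 SD. The share of autosomal peaks, 1.33%, was 0.670% with a 1 kb window, 2.89% with 5 kb, 0.793% over 5 kb from any start and 1.49% when only coding transcript starts were avoided. The share of genes with a site, 7.66%, was 14.1% with 5 kb. The median density, 0.898, was 1.36 in the shorter lists, 1.98 in the denser 50% and 1.49 with the longer list cut to the other's length. In the same order the CTCF share, 11.2%, was 13.0%, 14.1% and 13.97%, which was replicate 1 alone (15.04%, 17.7% and 17.05% from 11.5%; replicate 2 had 10.97%, 10.6% and 10.9% from 10.9%), and footprints per site, 2.38, were 2.75, 3.20 and 2.77. The CTCF share was also 10.6% with a 1 kb window and 10.5% over 5 kb from any start. Counting a peak at any start of the gene, 79.9% of sites had a promoter peak, in place of 73.7%. These alternatives each choose other peaks; further causes were not tested. With 1 library left out, values ranged over 1.24% to 1.43% of peaks, 32.9 to 72.2 per Mb, 4.83% to 10.5% of genes, 40.2% to 88.5% partnered, density 0.846 to 0.949, 70.7% to 76.7% with a promoter peak, 10.9% to 11.5% CTCF and 2.27 to 2.50 footprints. The partner share was 62.2% and 78.0% with lists of equal length.

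No paired analysis was possible because the study has 1 group. Read depth is unknown, so a site missing from a list cannot be told from one below detection, and a percentile depends on the length of its list.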
